A study of Mus musculus with 5 samples.

Results

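The 10 genes described here encode the 5 subunits of the transcription factor NF-κB (Rela, Rel, Relb, Nfkb1 and Nfkb2) and 5 proteins that restrain or adjust it (Nfkbia, Nfkbie, Nfkbiz, Bcl3 and Tnfaip3). They were chosen by symbol for their known roles, and each had its own row among the 24419 gene rows of the table. All were measured in bone marrow-derived macrophages (BMMs) of C57BL/6 mice (C57BL6/J in the design text), grown for 5 days with 50 ng/ml of the growth factor M-CSF and then activated with 100 ng/ml LPS, a bacterial cell wall component. Of the 5 samples, 2 were then kept with PBS and 3 with 100 ng/ml recombinant semaphorin 3G (Sema3G) for 18 h. Both groups had therefore received LPS, and no sample without LPS was analysed here, so the values compare Sema3G with PBS in activated macrophages and do not measure the response to LPS. Neither age and sex of the mice nor the origin of the samples in separate mice or cultures is stated, so p-values measure only the spread between these samples.

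NF-κB acts as a dimer of its subunits. In a resting cell IκB proteins hold most of it in the cytoplasm; after LPS binds its receptor, the IκB kinases mark IκB for destruction and the freed dimers enter the nucleus. There they switch on inflammatory genes and also several of their own inhibitors and subunits, which forms a feedback loop that is well known in macrophages.

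By totals recovered from the deposited CPM, the libraries held between 1798469 and 2215855 unique molecular identifiers (UMIs), each counting 1 RNA molecule read at its 3′ end. Levels are given in CPM, the UMIs of a gene scaled to a common library total. Any normalization factor that the authors applied to the CPM would be part of these totals and of the shares that follow. The rows of the table held 75.6% and 77.6% of the UMIs with PBS and 65.9% to 71.3% with Sema3G, and the ribosomal RNA precursor gene Rn45s held 1.01% and 3.19% with PBS and 6.31% to 7.88% with Sema3G. This difference enters every CPM, and the median log2 fold change of the 10088 genes tested was -0.22. TMM scaling from edgeR was applied here to the UMIs on the rows of the table as totals, so it changes the denominator as well. With it this median was -0.037, so a log2 fold change of -0.22 in the values below is that of the median gene. The part of the Rn45s difference in the results was not tested. Of the 8 macrophage markers 7 were well detected and Mertk had 0 to 5 UMIs per library, and they were at a summed 9761 and 12570 CPM with PBS and 8860 to 9518 CPM with Sema3G. Of the markers of other cell types, the 5 of T and B cells had no UMI in any library, the 3 of dendritic cells summed to at most 2.22 CPM, the 3 of mast cells and basophils to at most 0.461 CPM, the 3 of stromal cells to between 6.96 and 18.7 CPM, and the 4 listed of neutrophils, almost wholly S100a8, to between 103 and 167 CPM. Sema3G replicates 2 and 3 were the most alike, with counts that gave a chi-square of 1.77 for each degree of freedom. The other 9 pairs gave 6.57 to 29.6, with 11.4 for the PBS pair and 6.57 and 7.57 for the other Sema3G pairs. Sema3G replicates 2 and 3 were kept as 2 samples because they are labelled so. Their chi-square is set against counting error only, so it cannot tell separate cultures from libraries of the same culture. In bulk RNA, fewer cells of a type and less RNA per cell cannot be told apart.

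None of the 10 genes was called changed by Sema3G in limma on log2(CPM + 1), at an adjusted p below 0.05 over all genes tested. In the same fit 1.59% of all genes were called higher and 0.218% lower. Without adjustment, at p under 0.05, 1 of the 10 (Rel) was higher and 3 (Rela, Nfkb2 and Relb) were lower, against 6.83% and 14.2% of all genes. edgeR's quasi-likelihood test, DESeq2 and limma-voom on the recovered UMI counts called none of the 10 either, and in edgeR's test 4.63% of all genes were called higher and 0.0366% lower. In 5 of the 10 (Rela, Nfkb2, Relb, Nfkbie and Bcl3) the 3 Sema3G values were each under both PBS values, a pattern seen in 26.5% of all genes. Rel was the single gene of the 10 with all Sema3G libraries above both PBS libraries, which 11.9% of all genes showed. The median log2 fold change of the 10 was -0.29, beside -0.22 for all genes, and after TMM scaling it was -0.083 beside -0.037.

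Since each molecule is read once at its 3′ end, these levels need no division by gene length. Nfkbia was by far the most abundant of the 10, at a mean of 943 CPM over the 5 libraries, above 99.4% of all genes tested, and its lowest library (848 CPM) was above the highest library of any of the others. Bcl3 followed at a mean of 115 CPM, then Rela at 94.6, Nfkb2 at 60.1, Relb at 54.8, Nfkbiz at 51.6, Nfkbie at 35.1 and Nfkb1 at 29.97 CPM. Each of these 7 overlapped its neighbour in the order, though within each of the 5 libraries Rela was above Nfkb2 and Nfkbiz above Nfkbie. The lowest Bcl3 library, at 96.3 CPM, was above every library of the other 6 except Rela. Tnfaip3, at a mean of 9.25 CPM, and Rel, at 6.03 CPM, formed the low end, overlapped each other and lay below every library of the other 8. Rel stood above 25.6% of the genes tested.

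**Figure D1:**
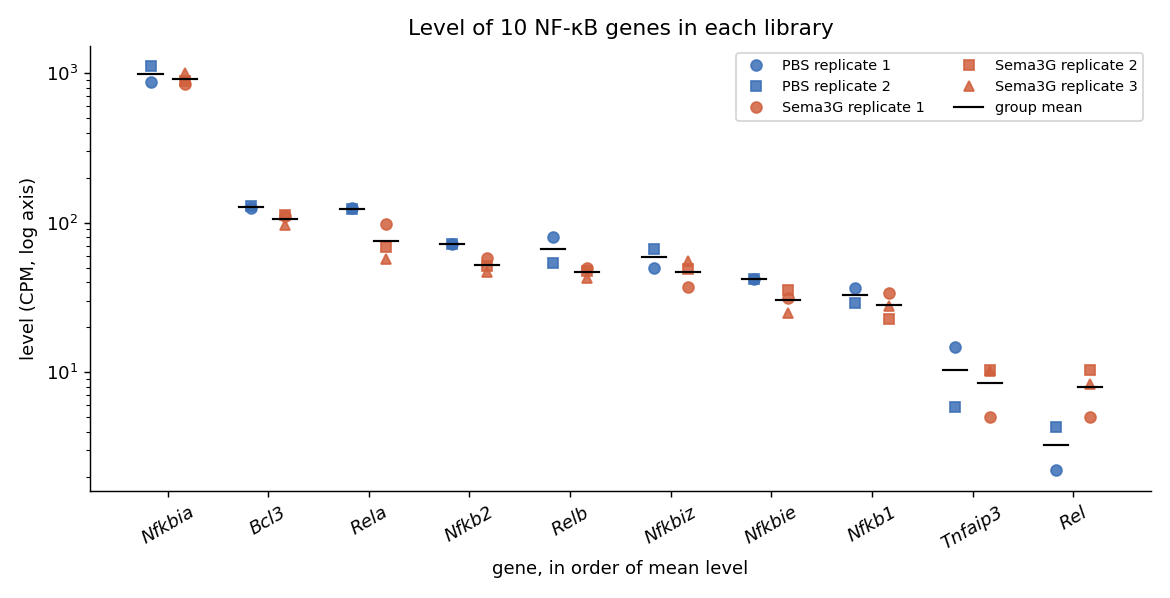
Level of each of the 10 genes in CPM (log axis), with 1 point per library, blue for PBS and red for Sema3G, and a black line at each group mean. Nfkbia stands apart at the top, the Rela points of Sema3G spread below the 2 nearly equal PBS points, and Rel is the gene whose Sema3G points all lie above its PBS points.

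Of the subunits, Rela, which carries a strong activation domain and forms the classical dimer with the product of Nfkb1, showed the lowest p of the 10 genes. It lies on the plus strand at chr19:5637483-5648130 in the GENCODE M21 annotation of GRCm38, the assembly of mm10, and this annotation is used for all positions of genes here. Rela was at 125 and 123 CPM with PBS and at 98.4, 69.0 and 57.2 CPM with Sema3G. The PBS libraries were nearly equal, and the Sema3G libraries were all lower but spread widely. The means were 124 ± 1.51 CPM (SD, n = 2) and 74.9 ± 21.2 CPM (SD, n = 3), a log2 fold change of -0.76 (standard error 0.22, 95% interval -1.22 to -0.30), with an adjusted p of 0.0851 from limma. Relative to the all-gene median its change was -0.53, and it was -0.56 after TMM scaling, with an adjusted p of 0.190 in edgeR's quasi-likelihood test. Without Sema3G replicate 1, the highest of its group, the log2 fold change was -0.97 and the limma adjusted p was 0.0113, which is past the threshold. That fit, which keeps of Sema3G only the most alike pair, called 303 genes higher and 553 lower, against 160 and 22 with all libraries, and the same holds wherever this library is left out below. With 1 library left out in turn it ranged from -0.97 to -0.59, negative each time.

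Rel, the gene of c-Rel, a subunit made mainly in blood cells, went the other way from a low level. It lies on the minus strand at chr11:23736847-23770970. Rel had 4 and 8 UMIs with PBS and 9, 23 and 18 UMIs with Sema3G, or 2.20 and 4.28 CPM against 5.00, 10.4 and 8.30 CPM. The groups did not overlap, but Sema3G replicate 1 was close to PBS replicate 2. The log2 fold change was 1.06 (standard error 0.43, 95% interval 0.17 to 1.96), or 1.29 after TMM scaling, with an adjusted p of 0.174 from limma and 0.144 from edgeR's quasi-likelihood test, where the log2 fold change was 1.53. The limma value depends on the pseudocount at this level, with 0.64 for a pseudocount of 5 and 1.27 for 0.1. From the pooled UMIs, 12 with PBS and 50 with Sema3G, the ratio of CPM was 2.49 (95% exact binomial interval 1.30 to 5.13, which covers counting error only). Leaving out PBS replicate 1 gave 0.70 and leaving out PBS replicate 2 gave 1.43, the ends of the range with 1 library left out.

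The subunits of the alternative NF-κB pathway, Relb and Nfkb2, pair with each other and act later and longer than the classical dimer. Nfkb2 (chr19:46304320-46312385, plus strand) was at 72.0 and 72.3 CPM with PBS and at 58.4, 51.0 and 47.0 CPM with Sema3G. The PBS values were almost the same and all Sema3G values were lower, with a log2 fold change of -0.47 (95% interval -0.89 to -0.043) and a limma adjusted p of 0.201. Its exons overlap those of Psd on the other strand, which had 0 UMIs in all 5 libraries, and those of a noncoding transcript on the other strand that was not analysed here, so counts on Nfkb2 are uncertain to that extent. Relb (chr7:19606217-19629438, minus strand) was at 79.7 and 54.1 CPM with PBS and at 50.0, 47.4 and 42.9 CPM with Sema3G. Here PBS replicate 1 stood apart, 1.47-fold above PBS replicate 2 (95% exact binomial interval 1.14 to 1.92, counting error only). The log2 fold change of Relb was -0.48 (95% interval -0.94 to -0.024, limma adjusted p = 0.217), and it was -0.21 without PBS replicate 1 and -0.76 without PBS replicate 2. Set against the median of all genes, the changes of Nfkb2 and Relb were -0.24 and -0.26.

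Nfkb1 (chr3:135584655-135691547, minus strand), which encodes the precursor of the DNA-binding partner of Rela, had overlapping groups. It was at 36.8 and 28.9 CPM with PBS and at 33.9, 22.6 and 27.7 CPM with Sema3G. Its log2 fold change of -0.23 (95% interval -0.75 to 0.30, limma adjusted p = 0.609) was -0.0050 from the median of all genes, and it was 0.052 when totals left out Rn45s and the unlisted UMIs. Without PBS replicate 1 it was -0.061 and without PBS replicate 2 -0.40.

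**Figure D2:**
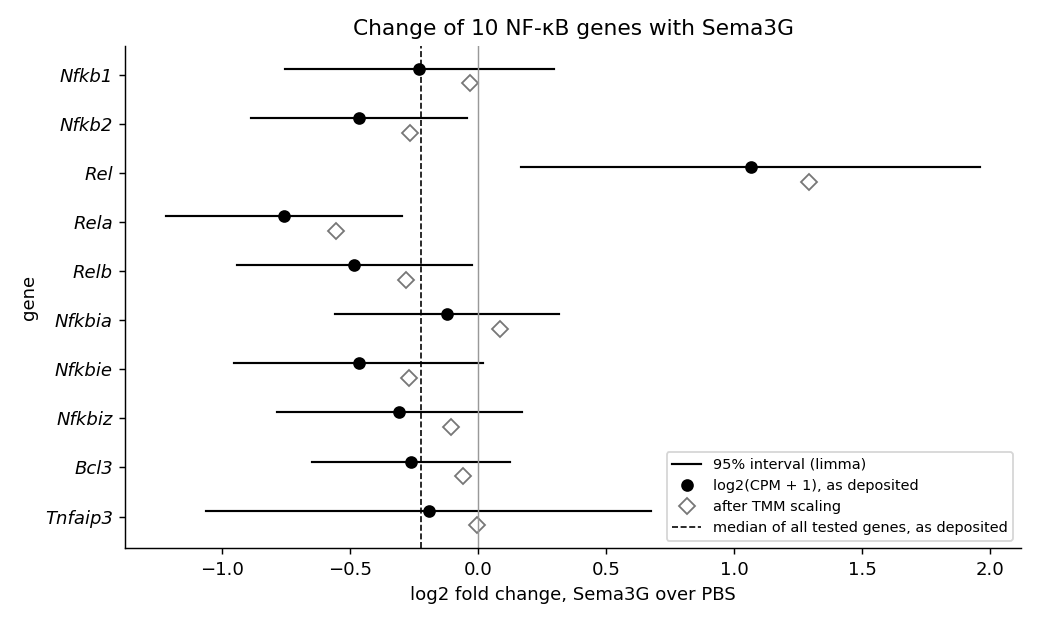
Log2 fold change of each gene with Sema3G over PBS. Black points with lines are the limma values on log2(CPM + 1) with their 95% intervals, open diamonds the values after TMM scaling, and the dashed line the median of all tested genes at -0.22. The interval of Rel lies above 0 and those of Rela, Nfkb2 and Relb below it, while the diamonds lie to the right of the points for all 10 genes.

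The make-up of the subunit transcripts within a library does not depend on the scaling. Rela supplied 39.7% and 43.6% of the UMIs on the 5 subunit genes with PBS and 40.05%, 34.5% and 31.2% with Sema3G. The exact binomial 95% intervals were 35.6% to 43.8% and 39.3% to 47.9% with PBS, and 35.4% to 44.8%, 30.04% to 39.1% and 26.7% to 36.0% with Sema3G. Sema3G replicate 1 lay within the PBS range, so the groups overlapped for this share. Rel supplied 0.696% and 1.52% with PBS and 2.04%, 5.18% and 4.53% with Sema3G, with no overlap between the groups. Its intervals were 0.190% to 1.77% and 0.656% to 2.96% with PBS and 0.935% to 3.83%, 3.31% to 7.67% and 2.71% to 7.07% with Sema3G, so the intervals of Sema3G replicate 1 and PBS replicate 2 overlapped while the values did not. The number of Rela molecules counted per Rel molecule was 57.0 and 28.8 with PBS and 19.7, 6.65 and 6.89 with Sema3G, where the value of PBS replicate 1 rests on 4 Rel UMIs. Nfkb1 supplied 11.7% and 10.2% with PBS and 13.8%, 11.3% and 15.1% with Sema3G, where Sema3G replicate 2 lay within the PBS range, and the mean share was 10.9% ± 1.01 (SD, n = 2) and 13.4% ± 1.96 (SD, n = 3). For Nfkb2 the mean share was 24.2% ± 1.97 (SD, n = 2) with PBS and 25.0% ± 1.06 (SD, n = 3) with Sema3G, and for Relb 22.2% ± 4.31 (SD, n = 2) and 22.5% ± 1.84 (SD, n = 3), differences smaller than the spread in either gene. The 5 subunits together were at 316 and 283 CPM with PBS and at 246, 200.4 and 183 CPM with Sema3G, a sum in which Rela has the largest part and which carries the difference in scaling.

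**Figure D3:**
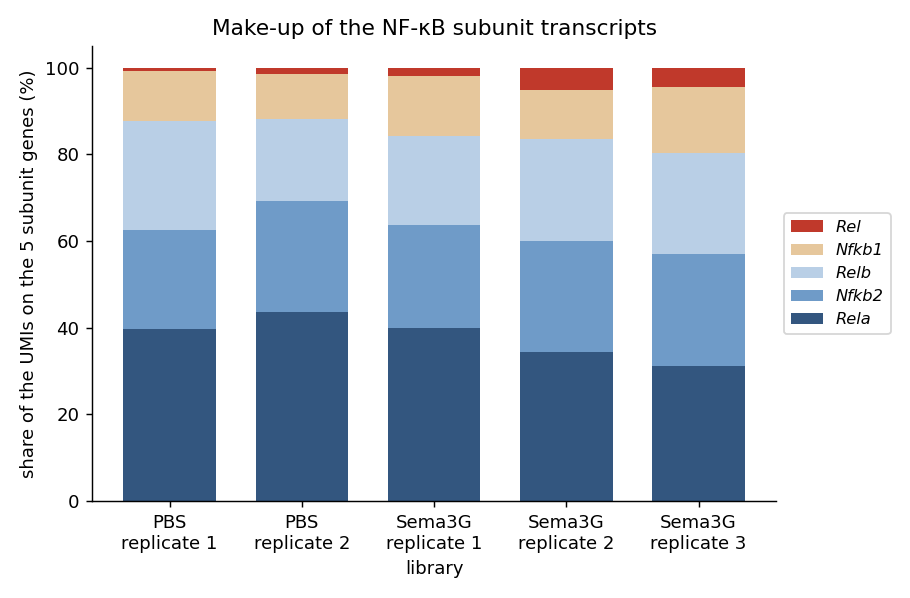
Share of each subunit gene in the UMIs on the 5 subunit genes, in percent, with 1 stacked bar per library. The Rel segment at the top is 0.696% and 1.52% with PBS and 2.04% to 5.18% with Sema3G, and the Rela segment at the bottom is smallest in Sema3G replicates 2 and 3, at 34.5% and 31.2%.

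Of the inhibitors, Nfkbia encodes IκBα, the classical IκB that NF-κB itself induces. It lies on the minus strand at chr12:55489410-55492647. Nfkbia was at 875 and 1113 CPM with PBS and at 848, 882 and 995 CPM with Sema3G, so 2 of the Sema3G values lay between those of PBS. The log2 fold change was -0.12 (standard error 0.21, 95% interval -0.56 to 0.32), with an adjusted p of 0.757 from limma. This count is large, 9311 UMIs over the 5 libraries, so counting error adds little, and the PBS libraries themselves differed beyond it, with a ratio of replicate 1 to replicate 2 of 0.786 (95% exact binomial interval 0.735 to 0.839, counting error only). The direction depends on the scaling, since the log2 fold change was 0.083 after TMM scaling. Nfkbie (chr17:45555703-45563169, plus strand), the gene of IκBε, was at 41.8 and 42.3 CPM with PBS and at 31.1, 35.2 and 24.9 CPM with Sema3G. All Sema3G values were below PBS, with a log2 fold change of -0.47 (95% interval -0.96 to 0.020) and a limma adjusted p of 0.257. Relative to the all-gene median this was -0.24, and after TMM scaling -0.27. The UMIs on Nfkbia and Nfkbie were 2.90 and 4.09 for each UMI on the subunit genes with PBS and 3.58, 4.58 and 5.57 with Sema3G, and the groups overlapped.

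The atypical IκB proteins work in the nucleus, where they bind NF-κB on DNA and can raise or lower transcription. Nfkbiz (chr16:55811375-55838899, minus strand), whose product IκBζ is needed for a set of late LPS-induced genes, was at 50.0 and 66.9 CPM with PBS and at 37.3, 48.7 and 55.3 CPM with Sema3G. The groups overlapped, with a log2 fold change of -0.31 (95% interval -0.79 to 0.17, limma adjusted p = 0.437). After TMM scaling it was -0.11, and it was -0.52 without PBS replicate 1 and -0.10 without PBS replicate 2. Bcl3 (chr7:19808462-19822770, minus strand), whose product binds the dimers of the Nfkb1 and Nfkb2 proteins, was at 125 and 130.1 CPM with PBS and at 111, 112 and 96.3 CPM with Sema3G. Its groups did not overlap, but the log2 fold change was only -0.037 from the median of all genes, at -0.26 (95% interval -0.65 to 0.12, limma adjusted p = 0.416). An antisense gene, Gm16175, overlaps exons of Bcl3, and the use of strand in the counting is not stated, so counts on Bcl3 are uncertain in the same way.

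Tnfaip3 (chr10:19000910-19015657, minus strand) encodes a ubiquitin-editing enzyme that shuts off signalling upstream of the IκB kinases. It had 27 and 11 UMIs with PBS and 9, 23 and 22 UMIs with Sema3G, or 14.8 and 5.89 CPM against 5.00, 10.4 and 10.1 CPM. The spread within the groups was larger than the difference between them. PBS replicate 1 was 2.52-fold above PBS replicate 2 (95% exact binomial interval 1.21 to 5.63, counting error only). The log2 fold change of -0.19 (95% interval -1.06 to 0.68, limma adjusted p = 0.812) became 0.41 without PBS replicate 1 and -0.79 without PBS replicate 2, so no direction can be given.

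By the shape of their values over the 5 libraries, measured as the root mean square difference of log2(CPM + 1) centred on each gene's mean, Nfkb2 and Bcl3 were the nearest pair, 0.12 apart. Nfkb2 was also the gene nearest to Rela, at 0.21, to Relb, at 0.18, and to Nfkb1, at 0.21. Nfkbia and Nfkbiz were nearest to each other, at 0.15. Rel was the farthest from the rest, 0.65 from its nearest gene, Nfkbia, and 1.06 from Rela. All genes share the same 5 libraries and their scaling, so this likeness is a description of the libraries too.

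NF-κB feeds back on several of these genes through κB sites in their promoters, and the start regions were therefore searched for the κB consensus, a motif of 10 bases, on both strands. RefSeq promoters of GRCm38.p6, running from 250 bases before the start to 50 bases from it on, were found for 7 of the 10 genes, so Nfkb1, Relb and Nfkbiz were not searched. Of their 10 promoters, 8 held a match, and of the 7 genes, 6 did (Nfkb2, Rel, Nfkbia, Nfkbie, Bcl3 and Tnfaip3). The Nfkb2 promoters at chr19:46305445-46305744 and chr19:46305680-46305979 overlap and share the same GGGACTTTCC, which counts in both. Of all 32851 promoters of this length 8.46% held a match, and of the 27025 genes with a promoter 9.55%. Rela was the gene of the 7 with no match in its window. A match is a run of letters and not a bound site, and no binding was measured here. For the 4 genes whose match lies nearest the start, the promoter holding that match is shown from 100 bases before it to 50 bases from it on, 5′ to 3′ on the strand of the gene, with every match in capitals, because they show how close to the start the motif can sit in the inhibitors and in the subunit with more than 1 match.
Bcl3 promoter (chr7:19822706-19822855, minus strand): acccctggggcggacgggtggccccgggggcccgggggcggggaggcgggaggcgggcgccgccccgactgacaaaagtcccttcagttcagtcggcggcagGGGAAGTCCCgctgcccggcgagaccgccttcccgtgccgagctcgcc
Nfkb2 promoter (chr19:46304637-46304786, plus strand): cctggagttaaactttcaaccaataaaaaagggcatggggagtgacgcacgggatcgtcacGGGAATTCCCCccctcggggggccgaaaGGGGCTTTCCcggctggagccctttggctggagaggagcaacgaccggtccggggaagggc
Tnfaip3 promoter (chr10:19015361-19015510, minus strand): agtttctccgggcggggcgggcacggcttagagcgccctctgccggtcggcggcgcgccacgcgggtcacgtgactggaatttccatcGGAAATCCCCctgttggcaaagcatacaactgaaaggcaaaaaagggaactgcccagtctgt
Nfkbia promoter (chr12:55492598-55492747, minus strand): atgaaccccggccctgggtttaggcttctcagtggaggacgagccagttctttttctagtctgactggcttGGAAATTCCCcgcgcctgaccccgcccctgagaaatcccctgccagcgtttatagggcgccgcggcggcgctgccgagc
With the start as position 1 and no position 0, the match of Bcl3 runs from 3 to 12, those of Nfkb2 from -39 to -29 and from -11 to -2, that of Nfkbia from -29 to -20, and the nearest of Tnfaip3 from -12 to -3. In Nfkb2 the first run holds overlapping matches, which were counted as 1. The run of Rel, GGGAAATCCCC, lies farther out, from -92 to -82, and that of Nfkbie, GGGGGATTCC, from -106 to -97.

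The rest of the pathway was examined in 4 lists, and none of its genes was called in limma either. Of the 13 genes listed as IκB kinases and upstream kinases, all tested, 0 were called. They include Ikbkg, Tab1, Tab2 and Tab3, which encode partner proteins of the kinases. In this list 2 genes were lower at an unadjusted p under 0.05, beside 14.2% of all genes. The median log2 fold change was -0.18, and 0.011 after TMM scaling. Ikbkb, the kinase that phosphorylates IκB in the classical pathway, had the lowest value. It was at 120.3 and 113 CPM with PBS and at 99.0, 62.7 and 75.1 CPM with Sema3G, with no overlap, a log2 fold change of -0.58 (-0.38 after TMM scaling) and an adjusted p of 0.138 from limma. Without Sema3G replicate 1 its log2 fold change was -0.76 (limma adjusted p = 0.0261). Tbk1, a related kinase that leads to interferon genes, had the highest, 0.32 (limma adjusted p = 0.507), with overlapping groups, and it was -0.062 without PBS replicate 2 and 0.70 without PBS replicate 1.

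Of the 17 ubiquitin ligases and adaptors, which carry the signal from the receptors to the kinases or mark IκB for destruction, 16 were tested and 0 called. In this list 3 were lower at an unadjusted p under 0.05, beside 14.2% of all genes. The median log2 fold change was -0.33, and -0.14 after TMM scaling. Traf2, an adaptor of tumour necrosis factor receptors, was at 16.5 and 13.4 CPM with PBS and at 7.78, 5.87 and 3.69 CPM with Sema3G. The groups were well apart, but the counts were small, from 8 to 30 UMIs, and the log2 fold change of -1.27 (95% interval -2.05 to -0.49) had an adjusted p of 0.0868 from limma. It was -1.48 without Sema3G replicate 1, with an adjusted p of 0.0321. Cul1, the scaffold of the ligase that takes up phosphorylated IκB, had the highest value of the list, 0.030 (limma adjusted p = 0.948), which was -0.017 without PBS replicate 1.

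Of the 16 other IκB proteins and brakes, all tested, 0 were called in limma. At an unadjusted p under 0.05, 2 were higher and 5 were lower, beside 6.83% and 14.2% of all genes. The median log2 fold change was -0.33, and -0.15 after TMM scaling. The highest was Rnf11, a partner of the Tnfaip3 enzyme. It had 14 and 16 UMIs with PBS and 23, 41 and 45 UMIs with Sema3G, with no overlap, a log2 fold change of 0.98 (95% interval 0.32 to 1.65) and an adjusted p of 0.111 from limma. In edgeR's quasi-likelihood test the adjusted p of Rnf11 was 0.0449, the single call that test made in these lists, for a log2 fold change of 1.35. Rnf11 was also called by that test with no filter (adjusted p = 0.00623) and by limma with totals without Rn45s and unlisted UMIs (adjusted p = 0.0324). DESeq2 (adjusted p = 0.169) and limma-voom (adjusted p = 0.083) did not call it. Nor did limma with TMM-scaled CPM (adjusted p = 0.062) or with the replicate block (adjusted p = 0.127). Without Sema3G replicate 1 limma gave 1.18, with an adjusted p of 0.037. Without Sema3G replicate 2 or 3 the limma adjusted p was 0.381 and 0.423. The lowest was Otud7b, a deubiquitinase, at -0.99 (limma adjusted p = 0.216), from 6 to 21 UMIs per library, and PBS replicate 2 set that value, since without it the log2 fold change was -0.40 (limma adjusted p = 0.686).

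Of 30 genes widely known as targets of NF-κB, 27 were tested and 0 called, with an unadjusted p under 0.05 for 0 that were higher and 4 that were lower, beside 6.83% and 14.2% of all genes. Their median log2 fold change was -0.33, and -0.14 after TMM scaling, beside -0.22 and -0.037 for all genes. In 8 of the 27 the Sema3G values were each under both PBS values, and in 0 above them, beside 26.5% and 11.9% of all genes. Cxcl2, a chemokine for neutrophils, had the highest value at 0.65 (limma adjusted p = 0.307). It was at 191 and 389.7 CPM with PBS and at 206, 621 and 619.6 CPM with Sema3G, so the groups overlapped, and its log2 fold change was 0.14 without PBS replicate 1 and 1.18, with an adjusted p of 0.0169 from limma, without Sema3G replicate 1. Saa3, an acute phase protein, had the lowest at -0.58 (limma adjusted p = 0.685). Saa3 was at 95192 and 123758 CPM with PBS and at 68319, 78138 and 71867 CPM with Sema3G. Its groups did not overlap, but limma's 95% interval, from -2.20 to 1.04, was wide. Across the 4 lists edgeR's quasi-likelihood test could use 64 genes, and it called the 1 named above, beside 4.63% of all genes called higher. With no filter that test also called Cxcl2, at 0.95 (edgeR adjusted p = 0.00012). Other tests on the same counts gave Cxcl2 a like value but no call. These were edgeR's test with its filter (0.97, adjusted p = 0.237), DESeq2 (0.95, adjusted p = 0.804) and limma-voom (0.90, adjusted p = 0.293).

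**Figure D4:**
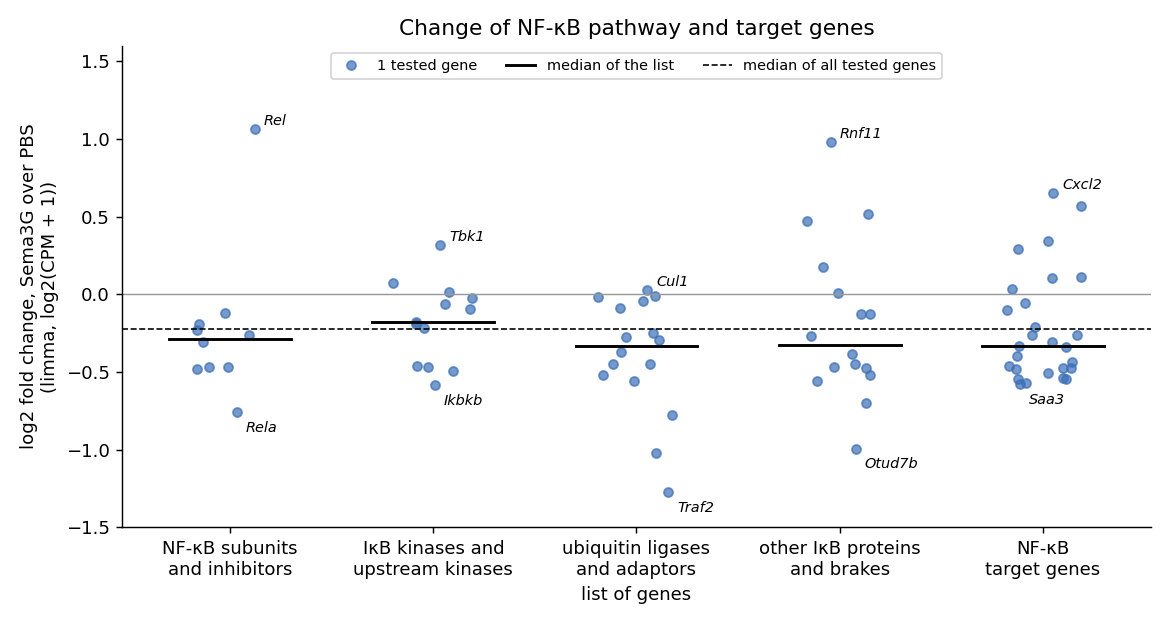
Log2 fold change (limma, log2(CPM + 1)) of each tested gene of the 10 described and of the 4 pathway lists, with 1 point per gene, a black line at the median of each list and a dashed line at the median of all tested genes, -0.22. The medians lie between -0.33 and -0.18, close to the dashed line, and single genes such as Rel, Rnf11 and Traf2 lie far from it.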

How the data were processed

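RNA of the 5 samples was made into QuantSeq 3′ libraries with UMIs. Per the study's methods and the submitters' processing notes, the authors aligned to mm10 in Strand NGS, where UMIs were counted, and scaled and tested with edgeR (3.12). The annotation, filters and use of strand are not stated. The deposited values are CPM, beside p-values, q-values and a ranking from the authors' own comparison, which were not used. Each CPM column is a multiple of 1 step, from which UMI counts and library totals were recovered (whole to within 0.01 for 100% of values). In R (4.3.3), log2(CPM + 1) of the 10088 genes averaging 1 CPM or more was tested in limma (3.58.1) with the trend option, and p-values were adjusted by Benjamini-Hochberg. The study used edgeR, but CPM are not counts, so edgeR's quasi-likelihood test (4.0.16), DESeq2 (1.42.0) and limma-voom on the recovered counts were alternatives. Fold changes on this scale understate those of low genes. A count of 3 corresponds to between 1.35 and 1.67 CPM. The fits were tested on simulated data. The members and the lists were chosen with earlier results of these data known. Named are all 10 genes, and in each list any called gene with the highest and the lowest by log2 fold change. One listed gene, Acod1, was found under its older symbol Irg1, and one neutrophil marker, Ly6g, was not analysed here.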

Additional observations from a re-analysis of the deposited data

How the results depend on the processing

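The number of genes called higher by limma, 160, was 104 with no filter, 324 with TMM-scaled CPM, 481 with totals without Rn45s and unlisted UMIs, 380 with edgeR's quasi-likelihood test, 572 with that test and no filter, 306 with limma-voom and 298 with the replicate block. The number called lower, 22, was 5 with a pseudocount of 0.1, 4 with no filter, 3 with TMM-scaled CPM, 1 with totals without Rn45s and unlisted UMIs, 3 with edgeR's quasi-likelihood test, 35 with that test and no filter, 1 with DESeq2, 3 with limma-voom and 275 with the replicate block. With 1 library left out, higher calls numbered 26 to 303 and lower calls 0 to 553: 303 and 553 without Sema3G replicate 1, 26 and 0 without Sema3G replicate 2, 28 and 0 without Sema3G replicate 3, and 83 and 9 without PBS replicate 1. The cause was not tested. None of the 10 genes was called higher under any of the 16 alternatives. The number called lower, 0, was 1 (Rela) with the replicate block and ranged from 0 to 1 with 1 library left out, being 1 (Rela) without Sema3G replicate 1. The block fit has 1 residual degree of freedom, and the replicate numbers, which join 2 pairs (r of deviations over genes 0.17 and 0.11), share only a number. It also called Ikbkb, at -0.56 (limma adjusted p = 0.0443), and Rela there was at -0.59 (limma adjusted p = 0.0342).

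Of 160 refits of the 10 genes, 143 kept the direction and the side of the threshold. Rel stayed positive and Rela, Relb, Nfkb2, Nfkbie and Nfkbiz negative in all 16 alternatives. Log2 fold changes turned positive with totals without Rn45s and unlisted UMIs for Nfkb1 (0.052), Nfkbia (0.17), Bcl3 (0.027) and Tnfaip3 (0.073), with TMM-scaled CPM for Nfkbia (0.083), with edgeR's quasi-likelihood test for Nfkb1 (0.0094), Nfkbia (0.11) and Tnfaip3 (0.013), with that test and no filter for Nfkbia (0.085), with DESeq2 for Nfkbia (0.079), and with limma-voom for Nfkbia (0.12) and Tnfaip3 (0.032). With 1 library left out Nfkbia ranged from -0.30 to 0.051, Tnfaip3 from -0.79 to 0.41, Tbk1 from -0.062 to 0.70 and Cul1 from -0.017 to 0.076. A PBS group of 1 library takes its spread from the Sema3G group. Rel and Tnfaip3 rest on few counts, with 62 and 92 UMIs over the 5 libraries.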
